A study of Mus musculus with 8 samples.

Results

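The Zfp genes are the mouse genes whose symbols are Zfp followed by a number, most of which encode proteins with C2H2 zinc fingers. Members were the autosomal protein-coding genes of that form in the RefSeq table of the GRCm38.p6 assembly, with 1 gene left out by the rule. They numbered 359 of 20664 autosomal protein-coding genes. A member counted as clustered when another lay within 100 kb of it, and as single otherwise. There were 208 clustered members in 50 clusters of 2 to 15 genes, and 151 single members. Chromosome 7 held 90 members, of which 73 were clustered, chromosome 17 held 41 and chromosome 13 held 32. The median gene length was 15.8 kb for clustered members, 20.2 kb for single members and 17.5 kb for all genes.

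The data were chromatin immunoprecipitation and sequencing (ChIP-seq) of CTCF and of Smc3, a subunit of cohesin, in the mouse embryonic stem cell line JM8.N4, kept on gelatin with serum and LIF but no feeder cells. The wild-type line (WT) carried no tag. The C59 line is 1 knock-in clone, homozygous for CTCF with a FLAG epitope and a Halo tag and for Rad21, another cohesin subunit, with a SNAPf tag and a V5 epitope, so that a difference between the lines cannot be told apart from a difference of this clone or library. Each line gave 1 library for each protein, and the 4 peak lists of these libraries are described here. The input and control IgG libraries of each line were not analysed here. With no replicates there was no test between the lines. Intervals of shares are exact 95% Clopper-Pearson intervals over genes, peaks or promoter windows. Those of differences between shares combine the limits of both shares. Those of summits per 100 kb are 95% Poisson limits on the number of summits. All of them cover counting error only and treat neighbouring genes or summits, and windows of the same gene, as independent. The CTCF lists held 98759 peaks for WT and 82227 for C59, and the Smc3 lists 47281 and 25734. Where 4 values follow each other they are in this order of lists. No list gave read totals, so the depth behind a peak is unknown, and a gene without a peak was below the authors' threshold. They hold no expression values, so markers of the cell type were not checked.

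Zinc finger genes of this kind make up one of the largest families of transcription factors in mammals, and many stand in tandem clusters that arose by repeated gene duplication. Many of the clustered genes encode a KRAB domain next to the fingers. KRAB zinc finger proteins bind transposable elements and other targets and recruit the corepressor Trim28, which brings histone methylation and heterochromatin. CTCF, itself a zinc finger protein, binds a long DNA motif and halts the loop-extruding cohesin ring at that site, so that cohesin is found mainly on CTCF peaks.

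Promoter sequence shows what CTCF stood on at some of these genes. RefSeq promoter windows, from 250 bases before to 50 after a start site, were available for 300 of the 359 members (362 windows). A WT CTCF summit, the highest point of a peak, lay in 36 of the windows (9.94%, 7.06 to 13.5), at 35 genes, against 9.06% of windows of all genes, and 24 of the 36 also held a C59 CTCF summit. The 4 sequences that follow are the bases before the start site at the members with the highest WT fold among windows with a summit there in both lines and at most 30 of these bases inside the gene. Fold is the authors' enrichment of a peak over its local background. Sequences run 5′ to 3′ on the strand of the gene, and capitals mark a match, on either strand, to a loose CTCF core of 12 bases, which reads CC, 3 bases of any kind, AG, 2 of any kind and GGC.
Zfp398: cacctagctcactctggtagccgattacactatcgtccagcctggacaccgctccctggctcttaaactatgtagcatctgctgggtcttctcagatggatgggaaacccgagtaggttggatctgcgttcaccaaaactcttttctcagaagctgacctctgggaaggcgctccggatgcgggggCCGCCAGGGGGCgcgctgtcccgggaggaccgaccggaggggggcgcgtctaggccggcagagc
Zfp113: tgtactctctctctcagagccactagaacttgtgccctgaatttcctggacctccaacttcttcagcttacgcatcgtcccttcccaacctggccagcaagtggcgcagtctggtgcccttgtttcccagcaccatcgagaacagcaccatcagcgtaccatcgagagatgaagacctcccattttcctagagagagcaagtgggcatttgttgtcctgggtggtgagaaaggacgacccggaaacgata
Zfp868: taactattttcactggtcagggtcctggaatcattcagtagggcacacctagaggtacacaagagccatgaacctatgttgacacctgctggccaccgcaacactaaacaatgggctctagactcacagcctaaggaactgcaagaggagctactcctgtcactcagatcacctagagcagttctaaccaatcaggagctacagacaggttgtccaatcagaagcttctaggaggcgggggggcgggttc
Zfp212: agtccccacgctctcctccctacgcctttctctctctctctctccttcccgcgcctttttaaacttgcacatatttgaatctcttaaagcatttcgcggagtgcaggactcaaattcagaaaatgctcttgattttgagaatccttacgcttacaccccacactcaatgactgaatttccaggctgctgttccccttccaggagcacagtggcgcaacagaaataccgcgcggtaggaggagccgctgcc
The Zfp398 sequence lies at chr6:47835411-47835660 on the plus strand, inside the overlapping end of Zfp786, and its capitals lie 10 bp from the WT CTCF summit, measured from the centre of the match. The Zfp113 sequence lies at chr5:138155745-138155994 on the minus strand, Zfp868 at chr8:69625549-69625798 on the minus strand and Zfp212 at chr6:47920318-47920567 on the plus strand, all in GRCm38.p6. These last 3 hold no match to those letters, although their WT CTCF folds were 30.5, 28.2 and 22.7. No match says only that these letters are absent from the window.

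Of the 7 Zfp windows with both a WT CTCF summit and a match, 4 had the summit within 25 bp of the centre of the match and 3 had it 189 to 217 bp away. Beside Zfp398, the near ones were 3 in which the match lay before a start site that is inside the annotated gene. At Zfp786 the match CCCGCAGGGGGC (chr6:47830584-47830595) lay 9 bp from a WT CTCF summit of fold 44.2. Zfp638 had GCCCCCTTCTGG (chr6:83914271-83914282) 14 bp from a summit of fold 31.3 in WT and 46.0 in C59, with Smc3 in both lines (11.7 and 8.85). Zfp341 had GCCCCCTGGCGG (chr2:154613287-154613298) 25 bp from a summit of fold 37.8. The distant matches were at Zfp764 (217 bp, WT fold 30.7), Zfp558 (195 bp, 8.39) and Zfp956 (189 bp, 4.02). Over all 362 Zfp windows the loose core stood in 10.8% (7.77 to 14.4), close to 10.1% of the windows of all genes, but it was in 4.50% of the windows of clustered members (2.08 to 8.37) and in 18.5% of those of single members (12.9 to 25.4). Median GC content moved with this, at 53.2% for clustered and 58.3% for single members and 57.0% for all genes, and its part in the difference was not tested. The shares were over 200 windows of 180 clustered genes and 162 windows of 120 single genes. Windows of the same gene can overlap, so the intervals may be too narrow. Of the 36 Zfp windows with a WT CTCF summit 7 held the loose core (19.4%, 8.19 to 36.0), against 32.6% of the 1819 such windows of all genes. For a stricter core, in which the base after CC must be A, the counts were 6 of 362 Zfp windows (1.66%, against 2.39% of all) and 2 of the 36 (5.56%, 0.680 to 18.7, against 10.7%).

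With the full lists, CTCF stood at the ends of Zfp genes about as often as at the ends of other genes. A member had a peak at an end when a summit lay within 1 kb of either annotated end. For WT CTCF 147 of 359 members did (40.9%, 35.8 to 46.2), against 39.7% of all genes. For C59 CTCF it was 120 (33.4%, 28.6 to 38.6), against 34.1%. WT Smc3 was at an end of 73 members (20.3%, 16.3 to 24.9), against 21.8%. These 3 shares were at the background. C59 Smc3 was at 31 (8.64%, 5.94 to 12.0), against 11.8%, which lies near the upper limit of the interval. Clustered and single members did not differ beyond their intervals at their ends, with 42.3% and 39.1% for WT CTCF and 7.69% and 9.93% for C59 Smc3. Clustered members shared few of these peaks, since 176 different WT CTCF peaks stood at the 147 genes and 2 of them at more than 1 member.

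The 5′ and 3′ ends were less alike. Strand was known for the 300 members with a promoter window. WT CTCF was at the 5′ end of 33.3% of these (28.0 to 39.0), against 30.3% of all genes, and at the 3′ end of 12.3% (8.83 to 16.6), against 14.8%. For Smc3 the 5′ end was at the background, with 14.7% in WT against 14.2% and 5.67% in C59 against 6.40%. The 3′ end held Smc3 in 6.33% of members in WT (3.86 to 9.71), against 9.61%, and in 3.0% in C59 (1.38 to 5.62), against 6.08%. Only the C59 value at the 3′ end has an interval below the share over all genes, among these 6.

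**Figure D1:**
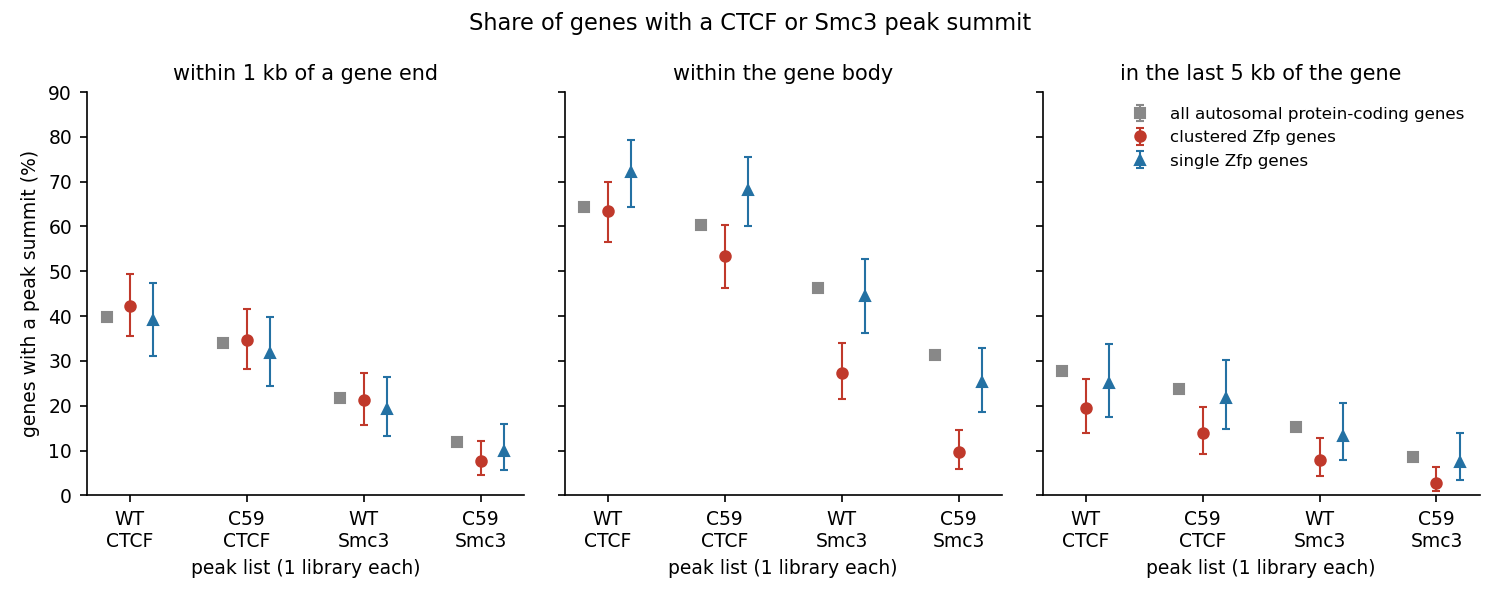
Share of genes (y axis, percent) with a summit within 1 kb of a gene end (left), within the gene body (middle) and in the last 5 kb of the gene (right) in each of the 4 peak lists, for clustered Zfp genes, single Zfp genes and all autosomal protein-coding genes. Points are shares and error bars exact 95% intervals. At ends the sets lie close together, while within bodies the clustered genes fall to 27.4% for WT Smc3 and 9.62% for C59 Smc3, against 46.3% and 31.4% of all genes.

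Within gene bodies the members were closer to all genes for CTCF than for Smc3. CTCF had a summit between the ends of 241 members in WT (67.1%, 62.0 to 72.0), against 64.3% of all genes, and of 214 in C59 (59.6%, 54.3 to 64.7), against 60.3%. Smc3 had one in 124 members in WT (34.5%, 29.6 to 39.7), against 46.3%, and in 58 in C59 (16.2%, 12.5 to 20.4), against 31.4%. The CTCF intervals of the members span the shares of all genes, and both Smc3 intervals lie below them. Members are not spread over gene lengths as all genes are. Weighted to the length classes of the members, all genes had 69.7% for WT CTCF, inside the interval, and 64.9% for C59 CTCF, just above it. With chromosomes weighted as well, the C59 CTCF reference was 64.6%, just inside. Further shares at matched length follow. Per 100 kb of gene body, members held 5.77, 4.48, 2.06 and 0.788 summits in the order of lists. All genes held 5.26, 4.30, 2.33 and 1.18. On this measure, pooled over gene lengths, CTCF was slightly above all genes in both lines, WT Smc3 slightly below and C59 Smc3 further below. Within the length classes given further on, CTCF density of members was below all genes from 10 to 40 kb in both lines. It was above all genes up to 10 kb in both lines and, in WT alone, slightly above over 40 kb. Counting ends and bodies together, 261, 240, 151 and 72 members had a peak, in the order of lists above. These were 72.7%, 66.9%, 42.1% and 20.1% of members, against 70.0%, 66.3%, 52.4% and 36.2% of all genes.

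The shortfall of Smc3 was mainly in the clustered genes. WT Smc3 lay within 27.4% of clustered members (21.5 to 34.0) and 44.4% of single members (36.3 to 52.7), a difference of -17.0 percentage points (-27.2 to -6.54). C59 Smc3 lay within 9.62% (5.97 to 14.5) and 25.2% (18.5 to 32.9), a difference of -15.6 points (-24.1 to -7.28). For C59 CTCF the shares were 53.4% and 68.2%, a difference of -14.8 points (-25.0 to -4.22), which became -9.01 (-19.3 to 1.54) when clusters were drawn at 50 kb. For WT CTCF they were 63.5% and 72.2%, and the interval of that difference (-18.6 to 1.51) spanned 0, though not when clusters were drawn at 250 kb (-11.0, -20.9 to -0.495). The call for CTCF thus depended on the distance that defines a cluster, while both Smc3 differences kept intervals below 0 at 50 and 250 kb. Within clusters the C59 Smc3 share went from 16.7% (6.97 to 31.4) of the 42 genes in pairs to 9.86% (4.06 to 19.3) of the 71 in clusters of 3 to 5 and 6.32% (2.35 to 13.2) of the 95 in clusters of 6 or more, with overlapping intervals. WT Smc3 in bodies was at 35.7%, 25.4% and 25.3% in these classes. At gene ends C59 Smc3 ran the other way, at 4.76%, 5.63% and 10.5%, also with overlapping intervals, and WT CTCF was at 40.5%, 39.4% and 45.3%.

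At matched gene length the Smc3 shares of members were lower in the classes above 10 kb. Among genes of over 10 and up to 20 kb, WT Smc3 lay within 27.5% of 142 members (20.3 to 35.6) and 41.8% of all genes, and C59 Smc3 within 11.3% (6.58 to 17.7) and 24.6%. Among genes of over 20 and up to 40 kb the WT shares were 36.0% of 114 members (27.2 to 45.5) and 55.2%, and the C59 shares 16.7% (10.3 to 24.8) and 34.1%. Above 40 kb they were 60.4% (45.3 to 74.2) of 48 members and 80.1% in WT, and 37.5% (24.0 to 52.6) and 61.8% in C59. In these 3 classes the upper limit of every Smc3 interval of the members was below the share of all genes. For CTCF the members were below all genes in each of these classes too, by less. In WT it lay within 60.6%, 74.6% and 83.3% of members, against 67.9%, 80.4% and 93.5%, and only the last of these intervals (69.8 to 92.5) excludes the share of all genes. In C59 it lay within 54.2%, 62.3% and 81.2%, against 62.1%, 75.3% and 91.4%, and the second interval (52.7 to 71.2) and, narrowly, the third (67.4 to 91.1) exclude it. The class above 40 kb has no upper limit, so length is not matched within it. Per 100 kb, members of that class held 4.44, 3.44, 1.69 and 0.762 summits in the order of lists, against 4.39, 3.59, 1.95 and 0.996 in all genes. Nor is length matched within the class up to 10 kb, since the shortest Zfp gene had 2.29 kb and the shortest of all genes 0.144 kb. Per 100 kb, members up to 10 kb held 11.1, 9.97, 5.13 and 1.42 summits, against 10.2, 8.48, 5.17 and 2.63 in all genes. In the classes between, CTCF was less dense in members than in all genes. Members of over 10 and up to 20 kb held 7.66 WT and 5.74 C59 CTCF summits per 100 kb, against 9.49 and 7.89. Members of over 20 and up to 40 kb held 6.46 and 5.02, against 8.21 and 6.59. At up to 10 kb the order of the shares was another. There CTCF was found in more of the 55 members than of all genes, 54.5% (40.6 to 68.0) against 31.1% in WT and 49.1% (35.4 to 62.9) against 27.3% in C59, and Smc3 in 27.3% (16.1 to 41.0) against 17.6% in WT and 9.09% against 9.71% in C59. When all genes were weighted to the length classes and chromosomes of the clustered members, 45.1% held WT Smc3 and 27.0% C59 Smc3, against the 27.4% and 9.62% observed. For single members the weighted shares were 50.9% and 33.2%, the first inside the interval of these members and the second just above it. For CTCF the weighted shares were 67.4% in WT and 62.6% in C59 for clustered members, against 63.5% (56.5 to 70.0) and 53.4% (46.3 to 60.3) observed, so that the C59 share was below its reference as well. For single members they were 72.0% and 67.4%, against 72.2% and 68.2%.

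**Figure D2:**
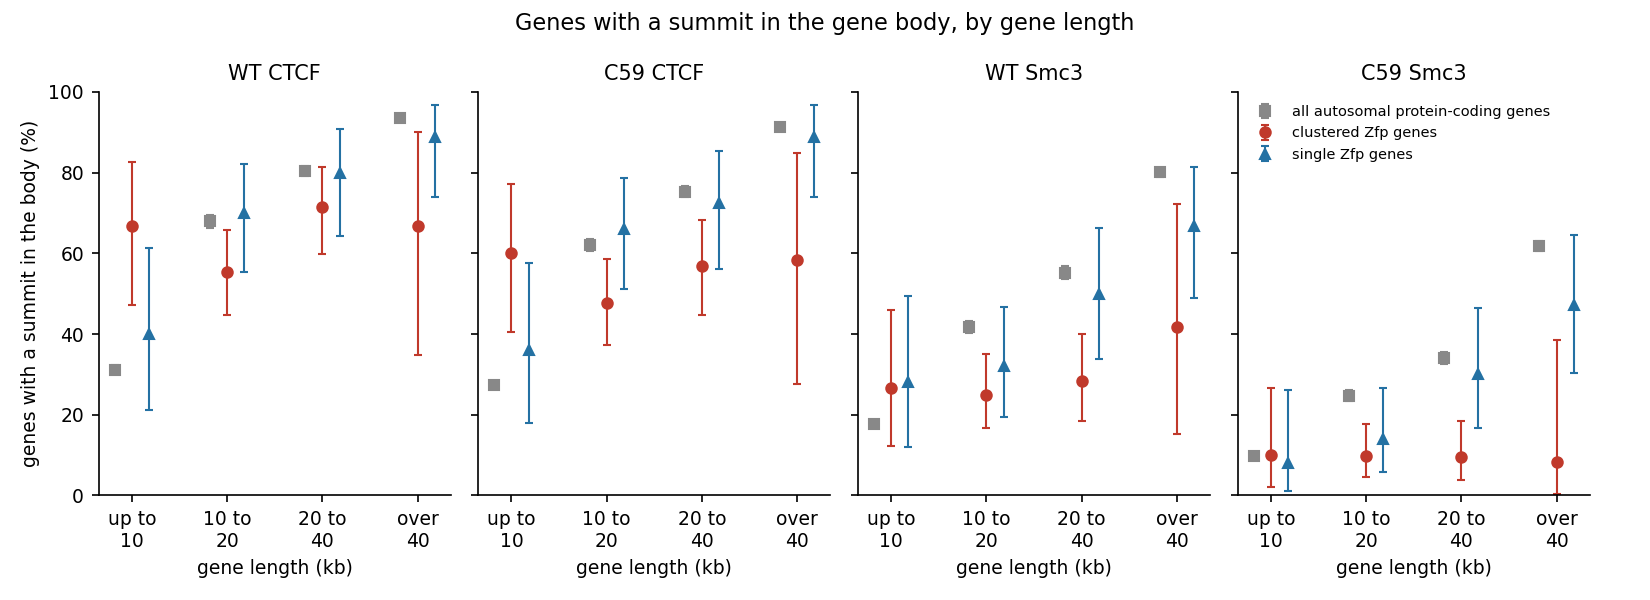
Share of genes with a summit within the gene body (y axis, percent) by class of gene length (x axis, kb) in each peak list, for clustered Zfp genes, single Zfp genes and all autosomal protein-coding genes, with exact 95% intervals. For Smc3 both Zfp points lie below that of all genes in the 3 classes above 10 kb, at 28.4% and 50.0% against 55.2% in WT for 20 to 40 kb.

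The difference between CTCF and Smc3 depended on how many peaks each list held. When only the top 25734 peaks by p were taken from every list, which is the length of the shortest, CTCF was less frequent in Zfp bodies as well. The shares were 23.4% (19.1 to 28.1) for WT CTCF, 20.6% (16.5 to 25.2) for C59 CTCF and 18.4% (14.5 to 22.8) for WT Smc3, against 34.7%, 33.9% and 32.2% of all genes. Among clustered members they were 18.3%, 14.4% and 13.9%, and among single members 30.5%, 29.1% and 24.5%. At gene ends the strongest peaks stood at 10.9% (7.84 to 14.6), 9.19% (6.41 to 12.7) and 6.96% (4.56 to 10.1) of members. All genes had 14.0%, 13.4% and 11.0% there. The C59 CTCF and WT Smc3 intervals at ends thus lay below the shares of all genes, and that of WT CTCF spanned its share. In bodies, with equal numbers of peaks, peaks of all 3 lists were thus less frequent in members than in all genes. At matched length and chromosome the references for these strongest peaks were 34.8%, 33.8% and 31.4%. The 738 WT CTCF peaks at ends of or within members had a median fold of 7.64, against 9.50 for all autosomal WT CTCF peaks. In C59 the 573 peaks had 9.04 against 11.2, and the 279 WT Smc3 peaks 4.88 against 5.81.

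Along the gene, CTCF was more frequent near the start than near the 3′ end, in Zfp genes as in all genes. At the 3′ end of Zfp genes the last exon as a rule encodes the finger array. In the first 5 kb WT CTCF had a summit in 124 of 300 members (41.3%, 35.7 to 47.1), against 36.6% of all genes with strand, and C59 CTCF in 35.0% (29.6 to 40.7), against 31.1%. In the last 5 kb WT CTCF was found in 65 members (21.7%, 17.1 to 26.8), against 27.8%, and C59 CTCF in 51 (17.0%, 12.9 to 21.7), against 23.7%. Both of these shares in the last 5 kb had upper limits under the share of all genes, while the intervals of the first 5 kb span it. Gene length was not matched here. Smc3 in the last 5 kb stood in 30 members in WT (10.0%, 6.85 to 14.0), against 15.2%, and in 14 in C59 (4.67%, 2.57 to 7.71), against 8.58%. In the first 5 kb Smc3 was at 16.0% in WT against 16.1% and at 5.67% in C59 against 7.44%. Clustered members had the lower values in the last 5 kb, 19.4%, 13.9%, 7.78% and 2.78% in the 4 lists in the order above, where single members had 25.0%, 21.7%, 13.3% and 7.50%, and these intervals overlapped. Per kb, the highest share was in the first kb inside the gene, where 21.0% of members had a WT CTCF summit, against 16.2% of all genes, while in the kb before the start it was 14.3% against 16.4%.

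**Figure D3:**
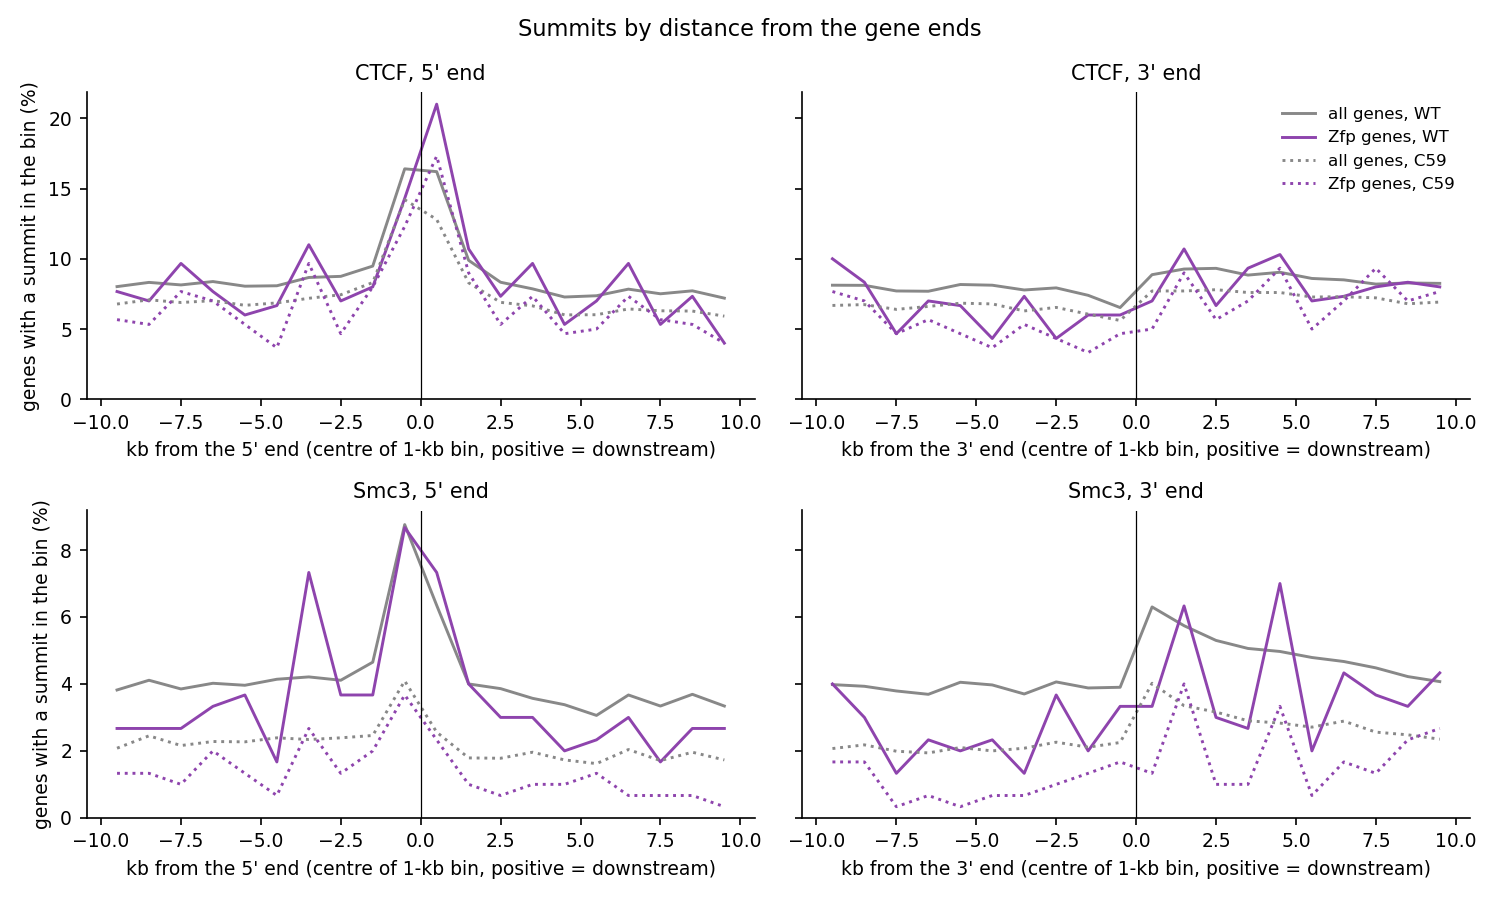
Share of genes with a summit (y axis, percent) in each kb from 10 kb before to 10 kb after the 5′ end and the 3′ end (x axis, kb), for the 300 Zfp genes and 16456 genes of known strand, with no error bars. The Zfp line for WT CTCF peaks at 21.0% in the first kb of the gene and lies under the line of all genes in each kb from 8 kb before to 1 kb after the 3′ end.

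The strongest peaks in the last 5 kb were at Zfp687, Zfp941, Zfp219, Zfp868 and Zfp408. Zfp687 (chr3:94994674-95015948) had CTCF folds of 41.8 in WT and 29.3 in C59 and Smc3 folds of 11.4 and 5.91. Zfp941 (chr7:140807453-140822201) had 35.4, 34.5, 7.93 and 5.56, and Zfp408 (chr2:91642756-91650051) had 31.4, 27.8, 9.12 and 3.50. These 3 held both proteins in both lines there, with no other WT Smc3 summit in the body. Zfp219 (chr14:52006075-52021140) reached 34.8, 50.8, 15.9 and 9.81. Zfp868 (chr8:69610654-69625557) differed in that the peak of its last 5 kb (33.2, 36.7 and 7.76) had no C59 Smc3. Of the 5, Zfp868 alone is clustered.

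Between the lines, CTCF at Zfp ends was mostly found in both and Smc3 mostly in WT alone. CTCF was at an end in both lines for 116 members, in WT alone for 31 and in C59 alone for 4, and in neither for 208. Of the 147 members with it in WT, 78.9% (71.4 to 85.2) had it in C59, against 82.6% of all such genes. Smc3 was there in both lines for 28 members, in WT alone for 45 and in C59 alone for 3. Of the 73 with it in WT, 38.4% (27.2 to 50.5) had it in C59, against 50.8% of all such genes. Both proteins were in all 4 lists at 27 members (7.52%, against 10.1% of all genes), and 33 had CTCF in both lines with Smc3 in WT alone (9.19%, against 8.48%). A further 55 had CTCF in both lines and no Smc3 in either (15.3%, against 13.9%). These last shares are near the background.

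Among clustered members with CTCF at an end in both lines, the highest WT fold was that of 1 peak shared by Zfp786 and Zfp398, which overlap on chromosome 6 in opposite orientation. Its CTCF folds were 40.4 in WT and 40.5 in C59, and its Smc3 folds 13.4 and 4.76. Zfp54 (chr17:21423227-21435384) had 38.4, 24.8, 12.3 and 4.91 in the same order, with its WT CTCF summit 445 bp before the start. Its neighbour Zfp51 (chr17:21450374-21465591) had 32.3, 29.6, 8.80 and 6.07. All 3 sites held both proteins in both lines. Zfp74 (chr7:29932661-29954148), with 30.0, 26.9, 10.1 and 5.33, was like them, whereas Zfp619 (chr7:39517766-39540415) had CTCF of similar fold (31.1 and 29.1) and WT Smc3 of 5.43 but no C59 Smc3 peak.

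Among single members Zfp639 (chr3:32510264-32520833) had the highest WT CTCF fold at an end, 46.1, with 41.0 in C59 and Smc3 folds of 6.20 and 5.45. Zfp703 (chr8:26977336-26981462), a transcriptional corepressor gene, had 42.3, 27.8, 13.1 and 5.77. Zfp423 (chr8:87661810-87962053), a regulator of fat cell and cerebellar development, had 35.1, 42.7, 7.55 and 5.45 at its start. It spans 300 kb and held 24, 18, 12 and 7 summits in its body. Zfp469 (chr8:122043123-122272650) had the highest WT Smc3 fold at an end of a single member, 15.1, with 5.72 in C59, and also 24 WT CTCF summits in its body. Smc3 of both lines was also at an end of Zfp653 (12.5 and 7.88) and Zfp704 (7.67 and 4.93). Zfp593 (33.9 and 25.2) and Zfp219 (33.2 and 22.9) had CTCF in both lines, with WT Smc3 of 2.95 and 8.20 and none in C59. Strong CTCF in both lines therefore went with C59 Smc3 at some of these genes and without it at others.

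CTCF peaks at an end in 1 line alone were under the median fold of their list, which was 9.50 in WT and 11.2 in C59. The highest WT CTCF folds with no C59 counterpart at an end were 7.84 at Zfp846, 7.79 at Zfp316 and 5.98 at Zfp442 among clustered members, and 7.79 at Zfp654, 7.60 at Zfp236 and 4.37 at Zfp950 among single ones. The 4 members with CTCF at an end in C59 alone were Zfp128 (8.37), Zfp36 (5.43), Zfp672 (3.37) and Zfp142 (2.89). At Zfp128 and Zfp36 the C59 peak coincided with a WT peak that has its summit just outside the window. C59 Smc3 alone was at Zfp763 (4.45), Zfp513 (3.38) and Zfp143 (3.38). Zfp143 encodes an activator that binds promoters and is often found near CTCF. WT Smc3 alone reached folds above the list median of 5.81, with 8.20 at Zfp219, 7.17 at Zfp809, 6.37 at Zfp949 and 5.91 at Zfp341, while Zfp345 (5.81) and Zfp882 (5.65) were at or under it. Zfp949 had no CTCF summit at its ends in either line, while the other 5 had CTCF in both.

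Counting peaks rather than genes, CTCF peaks of Zfp genes were found in C59 as often as their strength gives. Of the 738 WT CTCF peaks at ends of or within members, 75.1% (71.8 to 78.2) overlapped a C59 CTCF peak, and all autosomal peaks of the same fold had 75.2%. WT Smc3 peaks were found less often than that. Of 279, 36.9% (31.2 to 42.9) overlapped a C59 Smc3 peak, against 44.6% of all WT Smc3 peaks at the same deciles of fold 43.0% at the same deciles and chromosomes, just above the interval, and 43.5% of WT Smc3 peaks at ends of or within all genes at the same deciles. For the 80 peaks at ends the share was 35.0% (24.7 to 46.5), against 35.4% at the same fold, and for the 199 peaks within bodies beyond 1 kb of the ends it was 37.7% (30.9 to 44.8), against 48.2% and, for peaks so placed in all genes, 46.6%. Clustered members had 29.1% of 110 peaks (20.8 to 38.5), against 41.1% (39.9% in all genes), and single members 42.0% of 169 (34.5 to 49.8), against 46.8%. The interval of the single members spans its reference, as does that of the peaks at ends. The sources used here do not say how reads that fit several near-identical gene copies were treated, and their effect on clusters was not tested.

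Overlap was also counted from the CTCF side. Of the 573 C59 CTCF peaks of members, 17.8% (14.8 to 21.2) overlapped a C59 Smc3 peak, against 30.4% of all autosomal C59 CTCF peaks and 24.4% of those at the same fold. For clustered members it was 14.1% of 227 (9.85 to 19.3), against 22.4% at the same fold, and for single members 20.2% of 346 (16.1 to 24.9), against 25.7%. Part of this gap was common to genes. At gene ends of all genes the share was 26.4%, against 32.1% at the same fold. Against C59 CTCF peaks at ends of or within all genes at the same fold the references were 21.9% for all members and 19.9% for clustered members, both just above the intervals, and 23.3% for single members, inside the interval. In WT the share was 34.3% (30.9 to 37.8), against 36.9% at the same fold, which lies inside the interval. The C59 gap was widest in the seventh and eighth deciles of fold. In the seventh (15.2 to 20.4) 10 of 42 Zfp peaks had Smc3 (23.8%, 12.1 to 39.5), against 43.5% of all. In the eighth (20.4 to 26.3) 18 of 52 did (34.6%, 22.0 to 49.1), against 64.2%, and in the top decile 84.1% of 44, against 87.3%. The interval of the top decile (69.9 to 93.4) spans the share of all peaks. WT Smc3 peaks of the eighth decile of fold (7.96 to 9.60) were found in C59 at 16 of 26 Zfp sites (61.5%, 40.6 to 79.8), against 89.5%, while all 17 of the ninth and all 21 of the tenth decile were found. Smc3 peaks of members lay on CTCF of their own line in 94.3% of cases in WT and 95.4% in C59, close to the 95.1% and 97.9% of all autosomal Smc3 peaks.

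**Figure D4:**
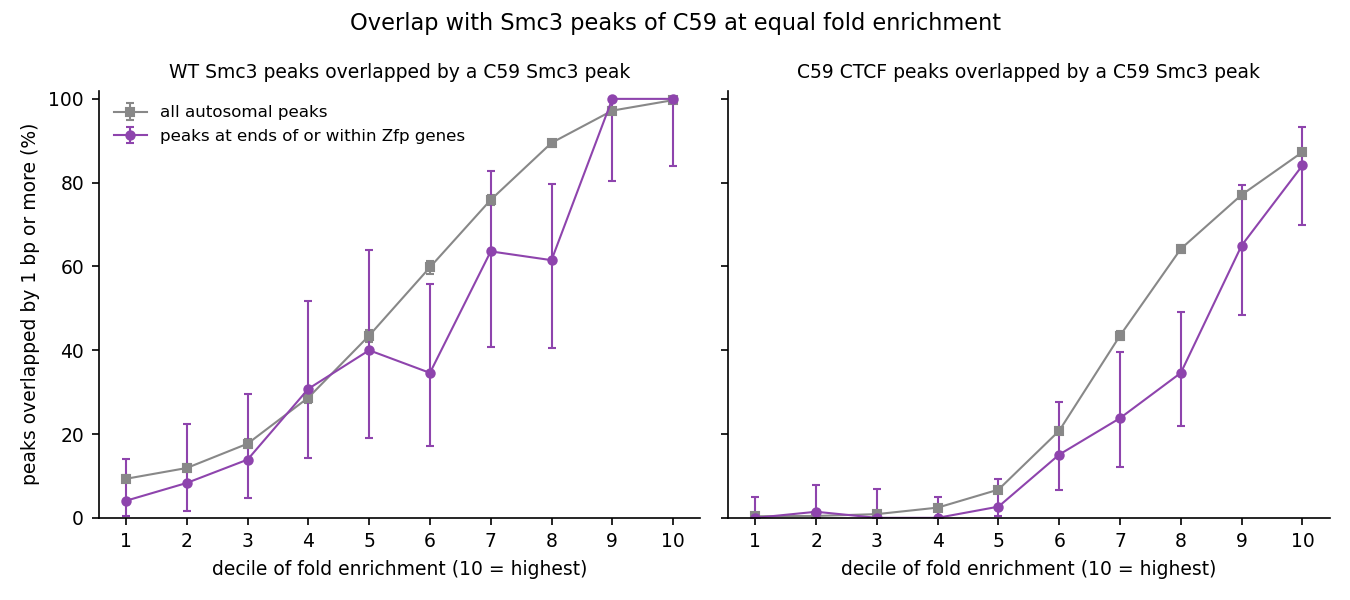
Share of peaks (y axis, percent) by decile of fold within the list (x axis, 1 weakest to 10 strongest), for peaks at ends of or within Zfp genes and for all autosomal peaks. Error bars on both are exact 95% intervals. The left panel plots WT Smc3 peaks and the right panel C59 CTCF peaks, each by overlap with a C59 Smc3 peak. In decile 8 the Zfp points lie under the line of all peaks, at 61.5% against 89.5% on the left and 34.6% against 64.2% on the right.

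The 50 clusters span 8.34 Mb from the first to the last member end. They held 526 and 416 CTCF summits in WT and C59 and 211 and 93 Smc3 summits, or 6.30, 4.99, 2.53 and 1.11 per 100 kb. The autosomes as a whole had 3.95, 3.29, 1.90 and 1.04, and the 100 kb on each side of the clusters had 6.54, 5.50, 3.26 and 1.52. Zfp clusters were thus denser in CTCF than the average of the autosomes, which include long gene-poor stretches, while the flank value for WT CTCF lies inside the interval of the clusters (5.78 to 6.87) and the other 3 lie above theirs (4.52 to 5.49, 2.20 to 2.89 and 0.900 to 1.37). With the 25734 strongest peaks of each list the clusters had 1.29, 1.20, 1.11 and 1.11 per 100 kb, their flanks 1.76, 1.76, 1.74 and 1.52 and the autosomes 1.04 to 1.05. WT CTCF was in no part of 3 clusters, C59 CTCF of 4, WT Smc3 of 7 and C59 Smc3 of 17. With equal numbers of peaks these counts were 17, 20, 15 and 17, so they follow the length of the lists. The 3 clusters without WT CTCF are pairs, Zfp960 and Zfp97 on chromosome 17, Zfp968 and Zfp965 on chromosome 2, and Zfp987 and Zfp600 on chromosome 4, and no list had a summit in them.

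Large clusters were far from alike. The one with most members, 15 genes from Zfp84 to Zfp146 (chr7:29768552-30169775), had 50 and 42 CTCF summits in WT and C59 and 21 and 5 Smc3 summits, in 401 kb. CTCF marked an end of 7 of these genes in the WT list and of 5 in the C59 list, and Smc3 of 4 and 2. The 14 genes from Zfp712 to Zfp748 (chr13:67038594-67553152) had 27, 20, 10 and 4 summits in 515 kb, and Smc3 at an end of 1 gene in WT and none in C59. The 13 genes from Zfp677 to Zfp943 (chr17:21383707-21994366) had 24, 19, 10 and 2 in 611 kb, with CTCF at an end of 8 genes in WT and 7 in C59. Its 3.93 WT CTCF summits per 100 kb were close to the 3.95 of the autosomes, and 5 of them lay within Zfp53. The 10 genes from Zfp180 to Zfp94 (chr7:24081877-24316698) had 24, 18, 6 and 2 summits and Smc3 at no gene end in either line. The 9 genes from Zfp978 to Zfp933 (chr4:147124882-147849126) had 12, 10, 6 and 3 summits in 724 kb, and a WT CTCF peak at an end of 1 gene only. That is 1.66 WT CTCF summits per 100 kb, among the 3 lowest of the clusters with 3 or more members.

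The other clusters at the low end were those of Zfp972 to Zfp931 on chromosome 2, with 1 summit in each list in 175 kb, and of Zfp992 to Zfp993 on chromosome 4, with 7, 4, 2 and 3 in 542 kb. At the high end were Zfp251 to Zfp647 on chromosome 15, with 15, 11, 9 and 4 summits in 73.6 kb (20.4 WT CTCF per 100 kb), Zfp628 to Zfp580 on chromosome 7, with 23, 19, 11 and 6 in 139 kb (16.6), and Zfp553 to Zfp689 on chromosome 7, with 29, 26, 13 and 5 in 216 kb (13.4). The 3 spans at the high end also hold 2 to 5 protein-coding genes that are no members, and the 3 at the low end 0 to 2. WT CTCF density over clusters of 3 or more members thus ran from 0.570 to 20.4 per 100 kb.

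**Figure D5:**
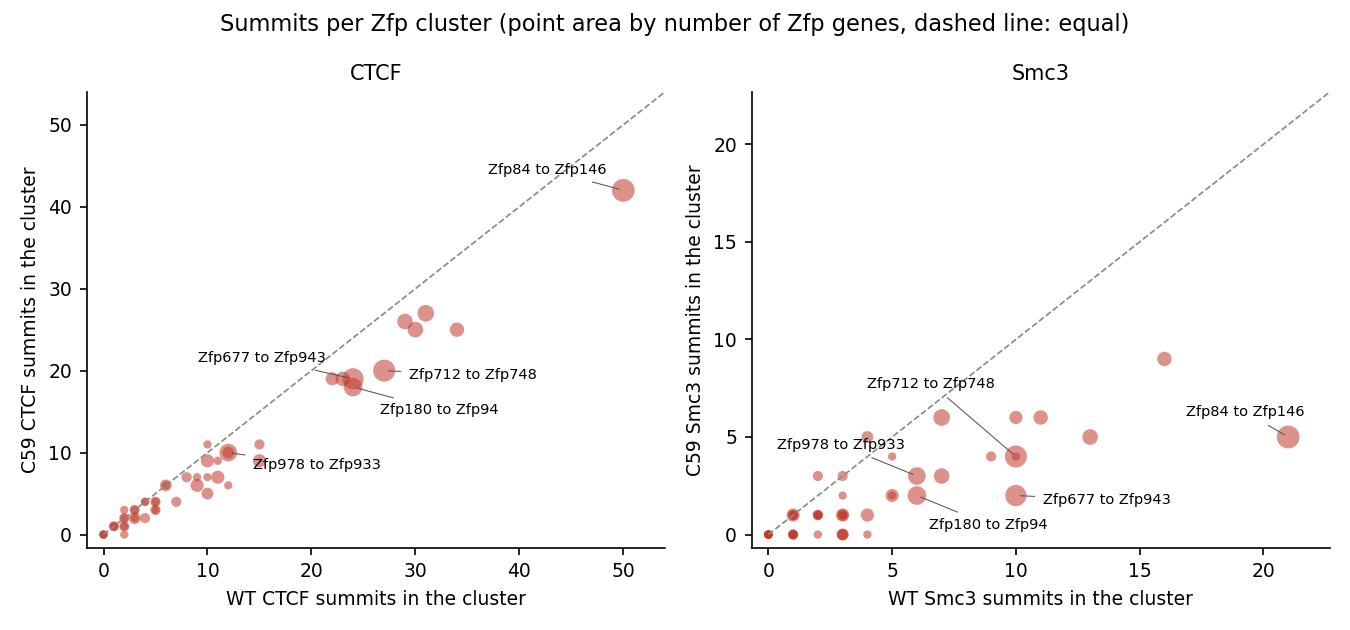
Number of summits in each of the 50 Zfp clusters in C59 (y axis) against WT (x axis), for CTCF (left) and Smc3 (right). Point area grows with the number of Zfp genes, and the dashed line marks equal numbers. CTCF points lie mostly close under the line, as at 42 against 50 for Zfp84 to Zfp146, and Smc3 points mostly far under it, as at 5 against 21.

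Members with known roles in silencing varied in the same way. Zfp809, which recognises the primer binding site of murine leukaemia virus and represses it, had CTCF at its start with folds of 25.0 (WT) and 26.7 (C59), and WT Smc3 of 7.17, with no C59 Smc3 peak at an end. Zfp568, a KRAB zinc finger gene that represses a placental transcript of Igf2, had 15.2, 14.9 and 3.34 at an end and no C59 Smc3 there. At an end both therefore had CTCF in both lines and Smc3 in WT alone. The body of Zfp568 held 4 WT Smc3 summits, as many as any clustered member. Zfp57, which maintains methylation at imprinted loci, had no CTCF summit at its ends or in its body and 1 WT Smc3 summit of 4.08 near its 3′ end. Zfp445, another regulator of imprints, had no peak of any list at its ends or in its body, nor had Zfp708 and Zfp932. Zfp459 had 4 WT CTCF and 1 C59 CTCF summits in its body and no Smc3.

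Other named members were no more uniform. Zfp281, a factor of embryonic stem cells, had CTCF at its start (8.71 in WT and 7.78 in C59) and WT Smc3 (4.17). Zfp64 had 17.7 and 27.4 at its start without Smc3 there, and 17, 14, 7 and 1 summits in its body. Zfp516, a regulator of brown fat genes, had none at its ends but 14, 12, 7 and 4 in its body, of up to 47.7, 54.8, 22.6 and 11.7. Some other single genes held fewer. Zfp217 had no peak at an end and 3, 1, 2 and 1 in its body, Zfp462 had 3, 1, 1 and 0 in 139 kb, and Zfp521, a relative of Zfp423, had 5, 3, 3 and 1 in 286 kb with a WT CTCF peak of 4.02 at an end. Zfp335 had 7, 5, 2 and 0 in its body and a WT CTCF peak of 3.06 at its start. Zfp207, which codes for a kinetochore protein, and Zfp110, whose product binds the p75 neurotrophin receptor, had weak CTCF in both lines (4.66 and 3.44, and 4.31 and 2.78) and no Smc3. Zfp36, which belongs here by symbol alone, encodes a CCCH zinc finger protein that binds RNA. It had 1 CTCF summit in its body in each line (6.89 and 5.43) and no Smc3.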

How the data were processed

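Peak lists of 4 ChIP-seq libraries (CTCF and Smc3 in WT and C59 cells) were analysed, 1 per line and protein, grouped by the sample labels. Per the labels, the Smc3 libraries were made with an antibody to Smc3, which was followed, although the extraction protocol lists anti-Rad21 beside anti-CTCF. The submitters' processing notes name MACS2 2.1.0.20140616, Bowtie 0.12.8 and build mm10, and also deepTools 2.4.1, FastQC 0.10.1 and CASAVA, without their roles. The control, threshold, pooling and treatment of repeated reads are not stated there. The authors deposited, for each peak, the pileup signal at its summit, a p-value and q-value (at most 0.0495 in any list) and a fold enrichment, a ratio to local background. Fold was used to describe, rank and match peaks within a list. Lists of unequal length limit comparison of the lines, so each share is set beside the same share over all genes.

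Positions were joined to the RefSeq gene table of GRCm38.p6, the chromosomes of mm10, in Python 3.11.15 with pandas 2.3.3, numpy 2.4.6 and scipy 1.17.1. Figures were drawn in matplotlib 3.10.9. Counting functions were tested on simulated peaks. A summit within 1 kb of an end, or between the ends, gave a gene a peak, and peaks overlapping by 1 bp counted as shared. Shares at the same fold are means over the 10 deciles of fold of the list, weighted as the Zfp peaks. Strand came from RefSeq promoter windows, so 59 members lack 5′ and 3′ values. The strict core was planned, and the loose core was added after seeing how few windows held it. Protein features were not analysed here.

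The members, gene lists and the rule for named genes were chosen with earlier results of these data known. The rule took 19 members in every case and, among clustered and among single members and for each protein, of the members with an end peak in both lines the 5 of highest WT fold, and at most 3 for each line alone. It also took the 5 with the highest WT CTCF fold in the last 5 kb, the 5 clusters with most members, and the 3 clusters with most and the 3 with fewest WT CTCF summits per 100 kb among those of 3 or more members. Pairs of genes with no summit, Zfp53, Zfp113, Zfp212, Zfp558, Zfp638, Zfp764 and Zfp956 were named outside it after their values were seen.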

Additional observations from a re-analysis of the deposited data

How the results depend on the processing

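Each share was recomputed under other settings. Each alternative value was set against the interval of the main value. Reference shares over all genes or peaks carry no interval, and their limits were taken from the width of the interval of the Zfp share. Of 123 alternative values 81 stayed within these limits and 42 moved beyond them. The clustered-minus-single differences stayed within theirs, which are wide, but 3 changed sign, all at gene ends and with intervals that span 0: WT CTCF from 3.23 to -0.714 and C59 CTCF from 2.83 to -1.47 points with clusters drawn at 250 kb, and WT Smc3 from 1.95 to -2.12 at a -log10 q of at least 10. Within bodies the C59 CTCF difference became -9.01 (-19.3 to 1.54) at 50 kb and the WT CTCF difference -11.0 (-20.9 to -0.495) at 250 kb. Values without chromosomes 1, 8 and 11 stayed within the main intervals. At gene ends the shares, in the order of lists of the report, were 28.1%, 22.3%, 13.4% and 5.01% within 500 bp and 58.5%, 51.5%, 34.5% and 16.2% within 2500 bp (all genes 26.8%, 22.7%, 14.1% and 7.17%, and 58.8%, 53.0%, 36.4% and 21.8%). At a -log10 q of at least 10 they were 33.4%, 26.5%, 10.0% and 3.90% (all genes 32.9%, 28.6%, 13.5% and 6.87%), and with any base of the peak in the window 47.4% for WT CTCF. With equal numbers of peaks they were 10.9%, 9.19% and 6.96% for the 3 longer lists (all genes 14.0%, 13.4% and 11.0%). Within bodies the shares were 60.7%, 52.9%, 21.2% and 12.3% at that q (all genes 59.9%, 56.0%, 36.4% and 21.5%) and 23.4%, 20.6% and 18.4% with equal numbers, where CTCF, unlike with the full lists, was under the share of all genes. The last 2500 bp held 14.0%, 9.33% and 6.67% for WT CTCF, C59 CTCF and WT Smc3, and the last 5 kb 4.67% for WT Smc3 at that q. WT CTCF peaks found again in C59 became 85.4% with equal numbers and 90.9% at that q, and WT Smc3 peaks 70.7% and 62.3%. CTCF peaks with Smc3 became 20.7% in WT and 8.90% in C59 when the overlap had to cover 50% of both peaks, and 64.9% and 59.9% with equal numbers. Summits per 100 kb of cluster were 5.08, 3.93, 1.44 and 0.647 at that q. For these values, from the last 2500 bp on, and for the 47.4%, no counterpart over all genes or peaks was computed. They show the effect of the setting and cannot show a trait of the members. Weighting all genes to the members' length classes, added after seeing the data, moved the WT CTCF body reference from 64.3% to 69.7% (69.4% with chromosomes), as did the looser motif its share from 5.56% to 19.4%. References at the same fold and chromosome, or over peaks of all genes, were also added then. No paired analysis was possible because each line and protein has 1 library and no result comes from a test.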

Other observations

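Genes of the machinery through which KRAB zinc finger proteins silence their targets were counted beside the Zfp genes, with 24 of 24 listed genes found in the RefSeq table. CTCF was at an end of 10 in WT and of 10 in C59 (41.7% each, 22.1 to 63.4), against 39.7% and 34.1% of all genes. Smc3 was at 7 in WT (29.2%, 12.6 to 51.1), against 21.8%, and 3 in C59 (12.5%, 2.66 to 32.4), against 11.8%. The intervals span the shares of all genes. Those shares are of autosomal genes, while the listed genes include Atrx and Suv39h1 on the X chromosome. Trim28, the corepressor that KRAB domains recruit, had CTCF of fold 15.2 in WT and 12.4 in C59 and Smc3 of 4.30 in WT alone. Cbx5, which encodes heterochromatin protein HP1 alpha, had CTCF of 35.1 and 19.7 and Smc3 in both lines (5.24 and 3.75), as did Adnp (31.7 and 18.7, 7.94 and 3.11). Daxx, a histone H3.3 chaperone, had 26.9 and 23.6, with Smc3 of 8.02 in WT alone. The histone methyltransferase gene Setdb1 had no peak of any list at its ends.

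Other families give the Zfp values a scale. The 67 genes named Zscan, Zkscan or Zbtb had WT CTCF at an end in 49.3% (36.8 to 61.8) and C59 CTCF in 35.8% (24.5 to 48.5). They had WT Smc3 there in 31.3% (20.6 to 43.8) and C59 Smc3 in 10.4% (4.30 to 20.3). Smc3 was within the body in 50.7% (38.2 to 63.2) in WT and 23.9% (14.3 to 35.9) in C59. All genes had 39.7%, 34.1%, 21.8% and 11.8% at an end and 46.3% and 31.4% within the body, all inside these intervals. Olfactory receptor genes (Olfr), also clustered but shorter (median 950 bp), had a WT CTCF summit at an end in 3.99% of 1104 (2.91 to 5.31) and C59 Smc3 in 0.543% (0.200 to 1.18). The pair Zfp287 and Zfp286 on chromosome 11 had no peak at an end of either gene and 10, 11, 5 and 4 summits between its ends (CTCF of the lines, then Smc3). This pair, chosen after its values were seen, had nearly as many C59 as WT Smc3 summits, as had Zfp954 to Zfp772 on chromosome 7 (4 in WT and 5 in C59) and Zfp944 to Zfp946 on chromosome 17 (3 in each list).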
